A study of Cavia porcellus with 35 samples.

Results

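The endocannabinoid signalling genes CNR1, DAGLA, DAGLB, MGLL, ABHD6, ABHD12, NAPEPLD and FAAH were examined in the medial prefrontal cortex (mPFC) of juvenile guinea pigs. They were chosen by symbol as a named list, by a rule that uses no measured value. All 8 were found, and tested, in each of the 4 deposited tables, which together list 12100 gene symbols. The libraries came from punches of mPFC taken at postnatal day 40, with 1 library per animal. F1 animals were born to guinea pigs treated in late pregnancy with betamethasone, a synthetic glucocorticoid (sGC, "Beta" in the labels), or with saline (control). F2 and F3 animals descended from the treated or control dams through the paternal line, by mating of F1 and then F2 males with females from outside the experiment, and were not themselves treated. There were 4 control and 4 sGC females in each of the F1, F2 and F3 generations, and 5 control and 6 sGC F1 males. The methods state for the female offspring that a litter gave no more than 1 animal of a sex, and for F1 males the litters are not given. The only difference the labels give between the groups of a table is the treatment of the ancestor.

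Endocannabinoids are lipid messengers that neurons make on demand and that travel backwards across the synapse. The postsynaptic cell releases 2-arachidonoylglycerol (2-AG), made by the diacylglycerol lipases, which binds the CB1 receptor on the presynaptic terminal and reduces transmitter release. CB1, encoded by CNR1, couples to inhibitory G proteins, and in cortex it is densest on cholecystokinin-expressing interneurons, with lower amounts on excitatory terminals, while the projection neurons of the striatum also express it. 2-AG is broken down mainly by monoacylglycerol lipase (MGLL) and otherwise by ABHD6 and ABHD12. Anandamide, the other main endocannabinoid, can be made by NAPEPLD and is broken down by FAAH.

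In the rest of the text, a level is the read count of a gene in an animal scaled to a common library size (TMM-normalized CPM), and a difference is the log2 fold change of sGC against control animals within a table. Tests were made with edgeR's quasi-likelihood test, with p-values adjusted over all tested genes of a table (edgeR FDR), and a gene is said to have risen or fallen where this was under 0.05. Because RNA was taken from whole punches, fewer cells of a type and less RNA per cell cannot be told apart.

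Library totals ranged from 12819964 to 19551079 reads in females and from 25697953 to 31763585 in males, and the 8 genes had between 183 and 13893 reads in every animal. The labels name both the prefrontal cortex and, in a protocol, the paraventricular nucleus of the hypothalamus. Summed levels of those paraventricular markers that a table listed, among CRH, AVP, OXT and SIM1, were between 6.58 and 19.3 CPM in all 35 animals, and OTP and TRH were not listed. SLC17A7, the vesicular glutamate transporter of cortical excitatory neurons, averaged between 429.3 and 1472 CPM in the control groups. The libraries of F1 females stood apart from each other. Their summed striatal marker level was 2351, 492.0, 769.3 and 2160 CPM in the 4 controls and 222.8 to 572.3 CPM in the sGC animals, and their excitatory cortical marker level was 209.5 to 1193 CPM in controls and 1065 to 4323 CPM in sGC animals. In F3 females, the excitatory cortical level was 588.9 to 987.9 CPM in controls and 1132 to 1413 CPM in sGC animals, without overlap, and the striatal level was 310.0 to 945.3 against 207.8 to 453.8 CPM. F2 females and F1 males spread less by these lists, with striatal sums of 115.4 to 198.5 CPM and excitatory sums of 1533 to 1955 CPM. Of 4 tested striatal markers, 1 rose in F2 sGC females, where 0.278% of all tested genes passed. The part of these differences in the results below was not tested, and results of F1 females are given with and without control animals 1 and 4, which had the highest striatal level. Leaving them out does not even out the lists. The remaining controls 2 and 3 had striatal sums of 492.0 and 769.3 CPM, the second above every sGC animal. Excitatory sums of these controls were 385.6 and 209.5 CPM, below every sGC animal. Their oligodendrocyte sums were 15770 and 10090 CPM, against 4650 and 7915 CPM in controls 1 and 4 and 3658 to 7397 CPM in sGC animals.

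**Figure D1:**
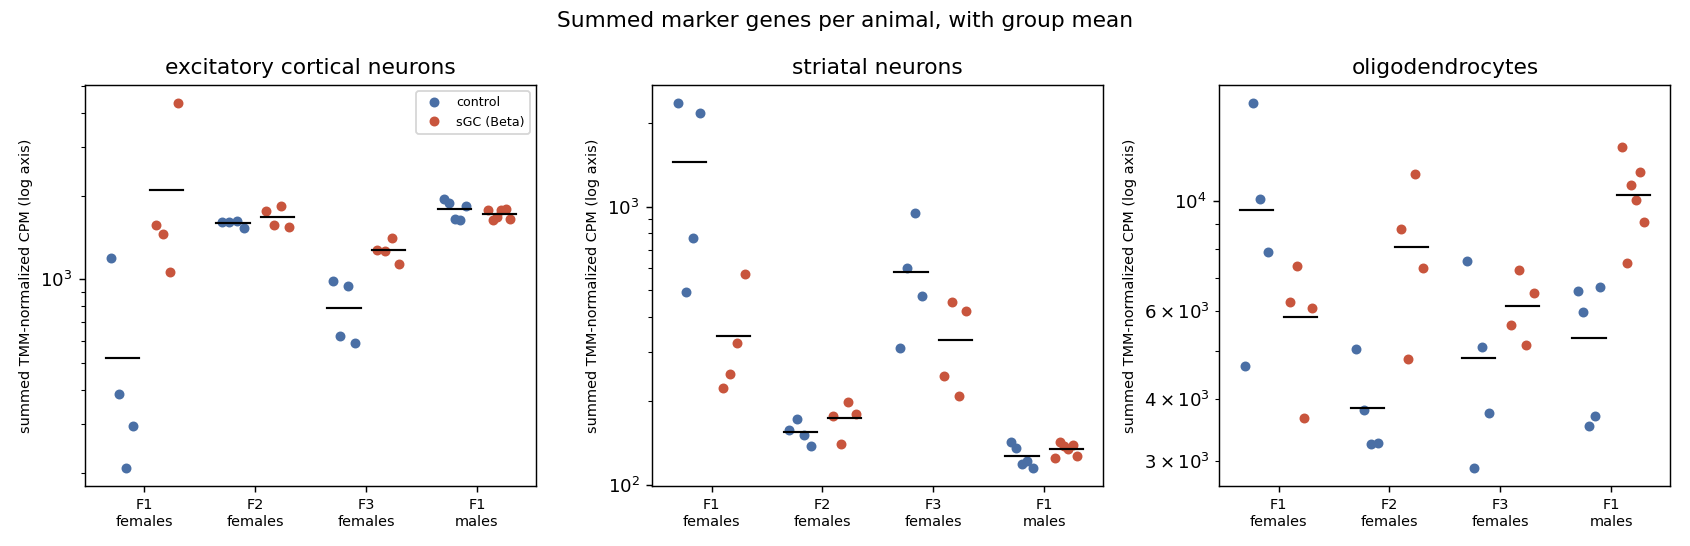
Summed TMM-normalized CPM (log axes) of the marker lists of excitatory cortical neurons, striatal neurons and oligodendrocytes, with 1 point per animal, controls in blue and sGC animals in red, and a bar at the group mean. F1 females spread widely, with striatal sums from 222.8 to 2351 CPM, while F2 females and F1 males lie close together in the first 2 panels and oligodendrocyte sums were higher in every sGC male than in every control male.

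CNR1, the CB1 receptor gene, was lower in sGC than in control animals in F2 females, F3 females and F1 males, and not in F1 females. In F3 females its level was 97.4, 134.3, 122.4 and 127.2 CPM in the 4 controls and 90.8, 83.4, 73.2 and 79.0 CPM in the 4 sGC animals. Every sGC animal lay below every control. From a control mean of 120.3 ± 16.0 CPM to an sGC mean of 81.6 ± 7.43 CPM (SD, n = 4 each), expression fell by 32.1% (log2 fold change -0.56, SE 0.10, edgeR FDR = 0.0368). CNR1 was the only 1 of the 8 genes with an FDR under 0.05 in F3 females, where 1.34% of all tested genes passed (1.07% with a rise and 0.271% with a fall), and the share of all genes with every sGC animal below every control was 4.35%. The call was not stable to the loss of an animal: the FDR was 0.00420 without control animal 1 and lay above 0.05 in each of the 7 other fits that left out 1 animal (at most 0.119). The log2 fold change stayed between -0.65 and -0.50 in those 8 fits. It was also lost, at an edgeR FDR of 0.0544, when all 8 groups were fitted together.

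Markers of the cells that carry CB1 were read in the same F3 animals. None of the 5 tested markers of CCK and VIP interneurons passed, with a median log2 fold change of -0.16 and summed levels of 264.9 to 367.1 CPM in controls and 358.9 to 439.4 CPM in sGC animals. Of the 5 general GABA neuron markers, the calcium-binding protein PVALB rose (log2 fold change 0.92, edgeR FDR = 0.00918) and the 4 others did not pass, among them GAD1 (-0.41), GAD2 (-0.49) and SLC32A1 (-0.85), with edgeR FDRs of 0.115, 0.0564 and 0.0574. The median of that list was -0.41, with summed levels of 535.3 to 740.6 CPM in controls and 457.8 to 547.9 CPM in sGC animals. The striatal list had a median log2 fold change of -0.74 (0 of 7 past the threshold), with summed levels of 310.0 to 945.3 CPM in controls and 207.8 to 453.8 CPM in sGC animals. The excitatory cortical list had a median of 0.57 (0 of 5), with sums higher in every sGC animal. The part of these differences in the CNR1 fall was not tested.

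In F1 males, CNR1 was at 81.4, 73.1, 99.6, 85.2 and 71.4 CPM in the 5 controls. The 6 sGC animals had a lowest value of 47.6, a highest of 84.2, and values of 52.2, 52.4, 53.2 and 57.4 CPM between them. Thus 5 of 6 sGC males lay below all 5 controls, and sGC animal 6 lay inside the control range. None of the 8 genes was without overlap in F1 males, where 4.22% of all tested genes had every sGC animal above every control and 2.04% had every sGC animal below. The mean fell from 82.1 ± 11.3 CPM (SD, n = 5) to 57.9 ± 13.3 CPM (n = 6), a decrease of 29.6% (log2 fold change -0.51, SE 0.13, edgeR FDR = 0.0314). CNR1 was again the only 1 of the 8 genes to pass, against 9.22% of all tested genes (5.74% with a rise and 3.48% with a fall). The FDR was under 0.05 in the fits without control animal 2, control animal 5 or sGC animal 6 (lowest 0.00226), and above it in the 8 other fits that left out 1 animal (at most 0.0841). Among interneuron markers, CALB2, a calcium-binding protein of a class of interneurons, fell in these males (log2 fold change -1.44, edgeR FDR = 0.0256), and the 5 other tested markers of the CCK and VIP list did not pass. The median of that list was -0.52, with overlapping sums of 553.9 to 704.5 CPM in controls and 546.3 to 678.0 CPM in sGC animals. Of the 5 general GABA neuron markers, GAD1 (-0.22, edgeR FDR = 0.0293) and SST (-0.54, edgeR FDR = 0.0345) fell, with a list median of -0.19 and overlapping sums of 606.1 to 738.6 CPM in controls and 563.2 to 687.8 CPM in sGC animals. All 8 tested oligodendrocyte markers rose in the sGC males, with summed levels of 3533 to 6708 CPM in controls and 7523 to 12880 CPM in sGC animals. The part of these shifts in the CNR1 difference was not tested.

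The F2 females had CNR1 at 134.1, 121.5, 167.9 and 117.3 CPM in controls and at 111.0, 112.8, 88.3 and 96.0 CPM in sGC animals. The groups did not overlap. This was so in the same direction for 4.02% of all tested genes, and for 4.08% in the other direction. The difference was -0.40 on the log2 scale (SE 0.12, unadjusted p = 0.00555 by the quasi-likelihood test) and did not pass after adjustment (edgeR FDR = 0.128), in a table in which 0.278% of genes passed (0.153% with a rise and 0.126% with a fall). With edgeR's likelihood ratio test the FDR was 0.0308, and with DESeq2 it was 0.0347. The summed level of upper-layer neuron markers was also lower in each sGC animal of this table (469.2 to 646.0 CPM) than in each control (664.6 to 842.8 CPM), with 0 of 6 markers past the quasi-likelihood threshold. Summed oligodendrocyte markers were 3251 to 5041 CPM in controls and 4822 to 11350 CPM in sGC animals (median log2 fold change 1.06, 0 of 8 past the threshold), and those of oligodendrocyte precursors were 427.5 to 505.8 and 520.5 to 682.4 CPM, without overlap (0 of 5). The deep-layer list had a median log2 fold change of 0.51 (0 of 6). The CCK and VIP interneuron list had one of -0.36 (0 of 6), with sums of 756.3 to 888.2 CPM in controls and 691.6 to 821.0 CPM in sGC animals. Whether these shifts bear on the CNR1 difference was not tested.

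In F1 females, CNR1 was at 116.7, 61.1, 85.9 and 100.5 CPM in controls and at 94.6, 106.6, 122.2 and 93.2 CPM in sGC animals, so that the groups overlapped. The means were 91.1 ± 23.6 and 104.1 ± 13.5 CPM (SD, n = 4 each), with a log2 fold change of 0.19 (SE 0.18, edgeR FDR = 0.478). In this table, where 7.33% of all tested genes fell, the striatal list had a median log2 fold change of -2.30 (4 of 7 fell). Medians were 2.01 for the excitatory cortical list (0 of 5 passed) and 0.30 for the CCK and VIP list (0 of 5). They were -0.40 for general GABA neuron markers (2 of 5 fell) and 0.14 for upper-layer markers (2 of 6 fell). The part of these shifts in the CNR1 result was not tested. The 2 controls with the highest CNR1 level were animals 1 and 4, which also had the highest striatal marker level. Without them the log2 fold change was 0.53 (SE 0.16, edgeR FDR = 0.0691). The order of the control means across tables was F1 males at 82.1, F1 females at 91.1, F3 females at 120.3 and F2 females at 135.2 CPM, and the ranges of neighbours in this order overlapped. The levels were normalized within each table, and how the tables were counted is not given in the sources used here, so this order also carries any difference between the tables.

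**Figure D2:**
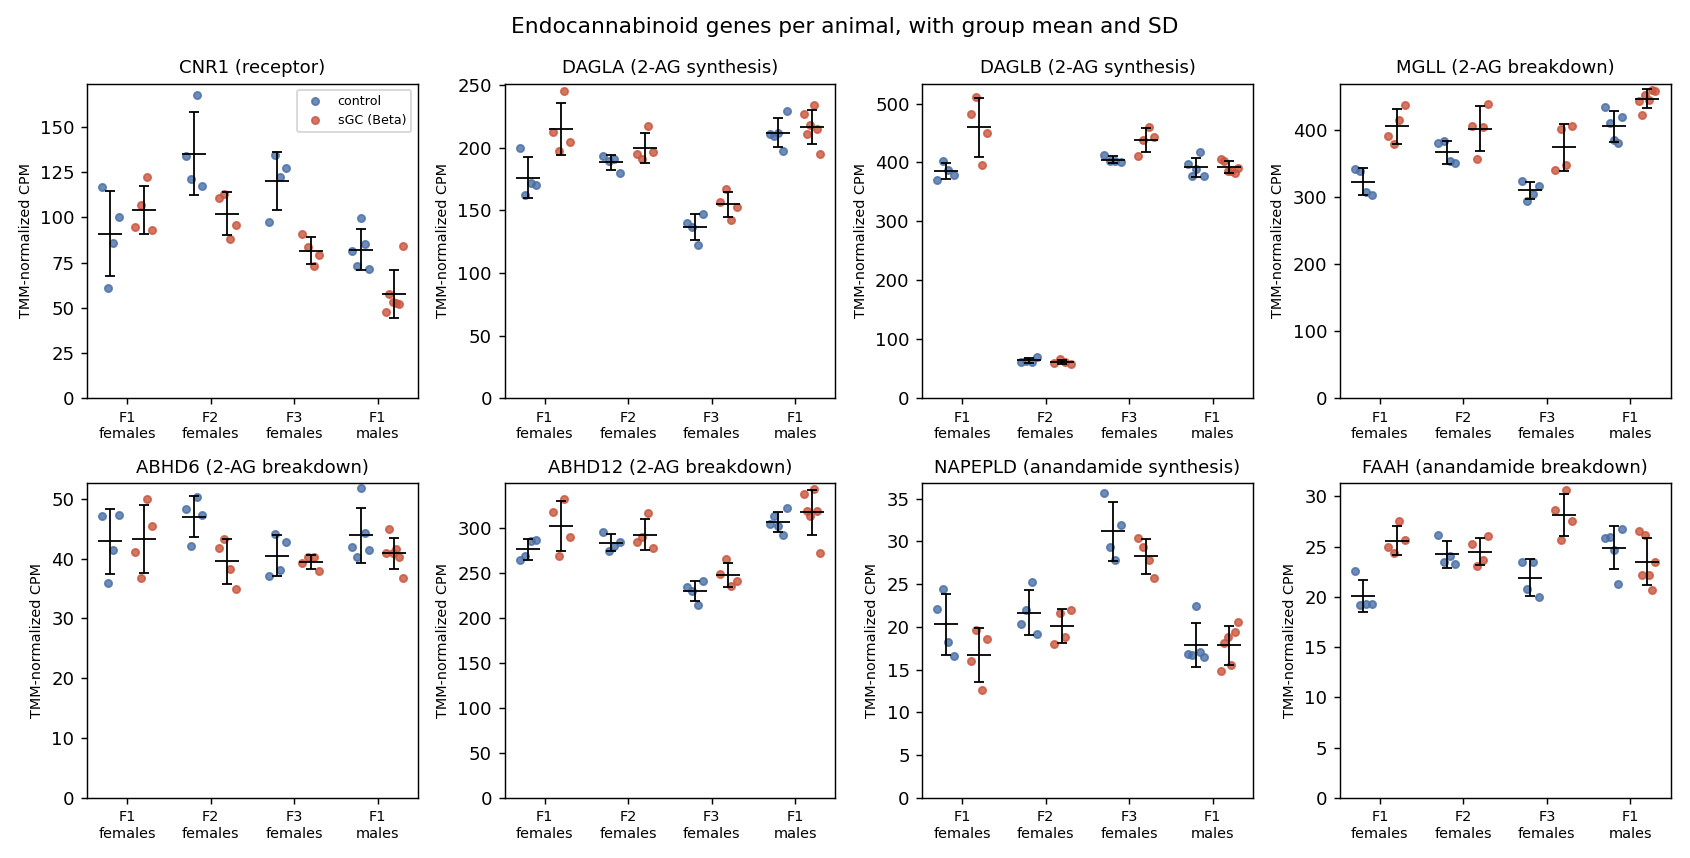
TMM-normalized CPM of each of the 8 genes in every animal (control in blue, sGC in red), with the group mean and SD, by table. CNR1 points of sGC animals sit below those of controls in F2 females, F3 females and, except for 1 animal at 84.2 CPM, F1 males, and DAGLB is near 60 CPM in F2 females only, compared with means of 384.8 CPM or more in the other tables.

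DAGLA and DAGLB encode the 2 diacylglycerol lipases that make 2-AG, of which the alpha form supplies most of the 2-AG of adult synapses. Neither passed the FDR threshold in any table by the quasi-likelihood test. The differences nearest to it were those of F1 females. DAGLA was at 200.0, 162.5, 171.8 and 170.2 CPM in F1 female controls and at 213.1, 197.6, 245.3 and 204.7 CPM in sGC females, with only control animal 1 inside the sGC range. The log2 fold change was 0.29 (SE 0.09, edgeR FDR = 0.0533). For DAGLB, the F1 female controls were at 370.6, 402.8, 387.4 and 378.6 CPM and the sGC females at 482.9, 511.1, 395.2 and 449.6 CPM. Here sGC animal 3 lay inside the control range, and the log2 fold change was 0.26 (SE 0.08, edgeR FDR = 0.0563). Of the genes beside DAGLB in the reference annotation, RAC1 was at 0.25 (SE 0.08, edgeR FDR = 0.0631) in these females. KDELR2, on the other side, was at -0.10 (SE 0.09, edgeR FDR = 0.439). DAGLA passed without control animal 1 (edgeR FDR = 0.0190) and DAGLB without sGC animal 3 (edgeR FDR = 0.0185), and neither passed in the 7 other fits that left out 1 animal. Both genes passed in 4 of 8 alternative analyses (RLE normalization, the likelihood ratio test, DESeq2 and a single fit of all groups). Without control animals 1 and 4, DAGLA passed (log2 fold change 0.39, edgeR FDR = 0.0409) and DAGLB did not (0.24, edgeR FDR = 0.151).

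In the other tables the lipases differed less between sGC and control animals. DAGLA had log2 fold changes of 0.09 (SE 0.06) in F2 females, 0.18 (SE 0.07) in F3 females and 0.03 (SE 0.05) in F1 males, with edgeR FDRs of 0.509, 0.224 and 0.756. The DAGLB values were -0.06 (SE 0.07), 0.12 (SE 0.05) and 0.0027 (SE 0.04), with FDRs of 0.740, 0.269 and 0.976. In F3 females all 4 sGC animals exceeded the control mean in both genes, and the groups overlapped in both.

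The level of DAGLB in F2 females stood apart from that of the other tables in control and sGC animals alike. It was 60.9, 62.9, 61.6 and 70.0 CPM in F2 controls and 59.4, 67.1, 60.8 and 58.2 CPM in F2 sGC animals. The control means of the other tables were 384.8 ± 13.8 CPM (SD, n = 4) in F1 females, 404.4 ± 5.84 CPM in F3 females and 391.4 ± 16.6 CPM (n = 5) in F1 males. The lowest of these was 6.03-fold the F2 value. Of the 10949 genes listed in all 4 tables, 107, or 0.977%, had an F2 control mean that differed by a log2 value of 2 or more, in either direction, from the median of the other tables. The genes on either side of DAGLB in the guinea pig reference annotation (mCavPor4.1), KDELR2 and RAC1, did not show this: the control means of KDELR2 were 50.3, 49.8, 59.3 and 41.4 CPM in F1, F2 and F3 females and F1 males, and those of RAC1 were 448.6, 516.3, 461.2 and 430.0 CPM. All 8 F2 animals shared this level, so it cannot be told apart from a property of the table as it was counted.

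MGLL, which hydrolyses most brain 2-AG, was higher in the sGC animals of every table, with FDRs from 0.0155 to 0.401. In F1 females its level was 342.0, 338.5, 307.3 and 302.6 CPM in controls and 390.0, 378.4, 414.7 and 437.5 CPM in sGC animals. The groups did not overlap. Of all tested genes in F1 females, 12% had every sGC animal above every control and 11.2% had every sGC animal below. The mean rose from 322.6 ± 20.5 to 405.1 ± 26.4 CPM (SD, n = 4 each; log2 fold change 0.33, SE 0.07, edgeR FDR = 0.0155). MGLL and FAAH were the 2 of the 8 genes that passed in F1 females, a share to be read against 16.5% of all tested genes (9.21% with a rise and 7.33% with a fall). The MGLL call was lost without control animal 3 (FDR = 0.0528 by the quasi-likelihood test) and held in the 7 other fits that left out 1 animal. It also held without control animals 1 and 4, with a log2 fold change of 0.35 and an edgeR FDR of 0.0344.

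In F3 females MGLL was at 323.4, 293.7, 303.9 and 316.5 CPM in controls and at 339.9, 400.5, 347.9 and 405.9 CPM in sGC animals. Again every sGC animal lay above every control, as 5.95% of all tested genes did. The log2 fold change of 0.27 (SE 0.07) did not pass (edgeR FDR = 0.0923), although it did with the likelihood ratio test (FDR = 0.0304) and with DESeq2 (FDR = 0.0125). The F1 male controls had values of 433.2, 409.5, 384.1, 379.8 and 419.3 CPM. The sGC males ranged from 421.3 to 459.3 CPM with all 6 above the control mean, and 5 of them above every control. The log2 fold change was 0.14 (SE 0.04, edgeR FDR = 0.0572), and the likelihood ratio test and DESeq2 gave FDRs of 0.0468 and 0.0178. Without control animal 1 the edgeR FDR was 0.0328. In F2 females the controls were at 379.6, 383.1, 352.6 and 349.8 CPM and the sGC animals at 405.5, 356.5, 404.3 and 438.1 CPM, with 3 of 4 sGC animals above every control (log2 fold change 0.13, SE 0.07, edgeR FDR = 0.401).

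ABHD6, a lipase that degrades 2-AG on the postsynaptic side, and ABHD12, which is known mainly for the breakdown of lysophosphatidylserine, did not pass the test in any table. ABHD6 was lower in F2 sGC females, at 41.7, 43.3, 38.2 and 34.9 CPM, compared with 48.3, 42.1, 50.2 and 47.3 CPM in their controls, and only control animal 2 lay inside the sGC range. This was a log2 fold change of -0.25 (SE 0.08, edgeR FDR = 0.186). Its log2 fold changes in F1 females, F3 females and F1 males were 0.01 (SE 0.12), -0.04 (SE 0.07) and -0.10 (SE 0.07), with upper-quartile normalization turning the first to -0.02. Without F1 female controls 1 and 4 the first was 0.19 (edgeR FDR = 0.367), and that of ABHD12 was 0.15 (edgeR FDR = 0.316). ABHD12 had log2 fold changes of 0.13 (SE 0.07), 0.04 (SE 0.06), 0.11 (SE 0.06) and 0.05 (SE 0.05) in F1, F2 and F3 females and F1 males. Its edgeR FDRs were 0.234, 0.775, 0.382 and 0.641, and its groups overlapped in F1 and F2 females and F1 males. In F3 females the sGC animals of ABHD12 lay between 235.0 and 264.8 CPM and the controls between 213.8 and 240.6 CPM, again with overlap.

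NAPEPLD, which releases anandamide and related N-acylethanolamines from membrane phospholipids, did not pass in any table. In F1 females it was at 22.1, 24.4, 18.2 and 16.6 CPM in controls and at 15.9, 19.6, 12.7 and 18.6 CPM in sGC animals (log2 fold change -0.28, SE 0.16, edgeR FDR = 0.249). All 4 sGC animals were below the control mean, with overlap between the groups. Without controls 1 and 4 the log2 fold change was -0.33 (edgeR FDR = 0.278). The log2 fold changes were -0.11 (SE 0.11) in F2 females, -0.14 (SE 0.09) in F3 females and -0.0034 (SE 0.10) in F1 males. Its control means were 17.9 ± 2.53 CPM in F1 males, 20.3 ± 3.57 CPM in F1 females, 21.7 ± 2.67 CPM in F2 females and 31.2 ± 3.44 CPM in F3 females. F3 female controls, between 27.8 and 35.6 CPM, did not overlap with the controls of the other tables, which reached at most 25.3 CPM, while the ranges of the 3 other control groups overlapped. How many of all genes had F3 controls apart in this way was not counted. The levels were normalized within each table, so this gap also carries any difference between the tables.

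FAAH, the main hydrolase of anandamide, was higher in sGC than in control animals in F1 and F3 females. In F1 females it was at 22.5, 19.2, 19.3 and 19.2 CPM in controls and at 24.9, 24.3, 27.6 and 25.6 CPM in sGC animals. No sGC animal was as low as a control. The mean rose from 20.1 ± 1.63 to 25.6 ± 1.40 CPM (SD, n = 4 each), or by 27.4% (log2 fold change 0.35, SE 0.08, edgeR FDR = 0.0198). The call was lost without control animal 3 or control animal 4 (FDR at most 0.0658 by the quasi-likelihood test) and held in the 6 other fits that left out 1 animal. Without control animals 1 and 4 together, the log2 fold change was 0.43 and the edgeR FDR was 0.0233.

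The F3 females had FAAH at 23.4, 20.8, 23.5 and 19.96 CPM in controls and at 28.6, 25.7, 30.7 and 27.6 CPM in sGC animals, again without overlap. The log2 fold change of 0.36 (SE 0.08) was close in size to that of F1 females but did not pass the threshold (edgeR FDR = 0.0660). With the likelihood ratio test and DESeq2 the FDRs were 0.00817 and 0.0112, and without control animal 1 the edgeR FDR was 0.0364. In F2 females, FAAH was at 26.2, 23.4, 24.1 and 23.2 CPM in controls and at 25.2, 23.1, 23.7 and 26.0 CPM in sGC animals (log2 fold change 0.02, SE 0.08). In F1 males, the controls ranged from 21.3 to 26.8 CPM with a median of 25.8, and the sGC animals from 20.7 to 26.5 CPM (log2 fold change -0.08, SE 0.08). In both of these tables the groups overlapped across nearly their whole range.

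**Figure D3:**
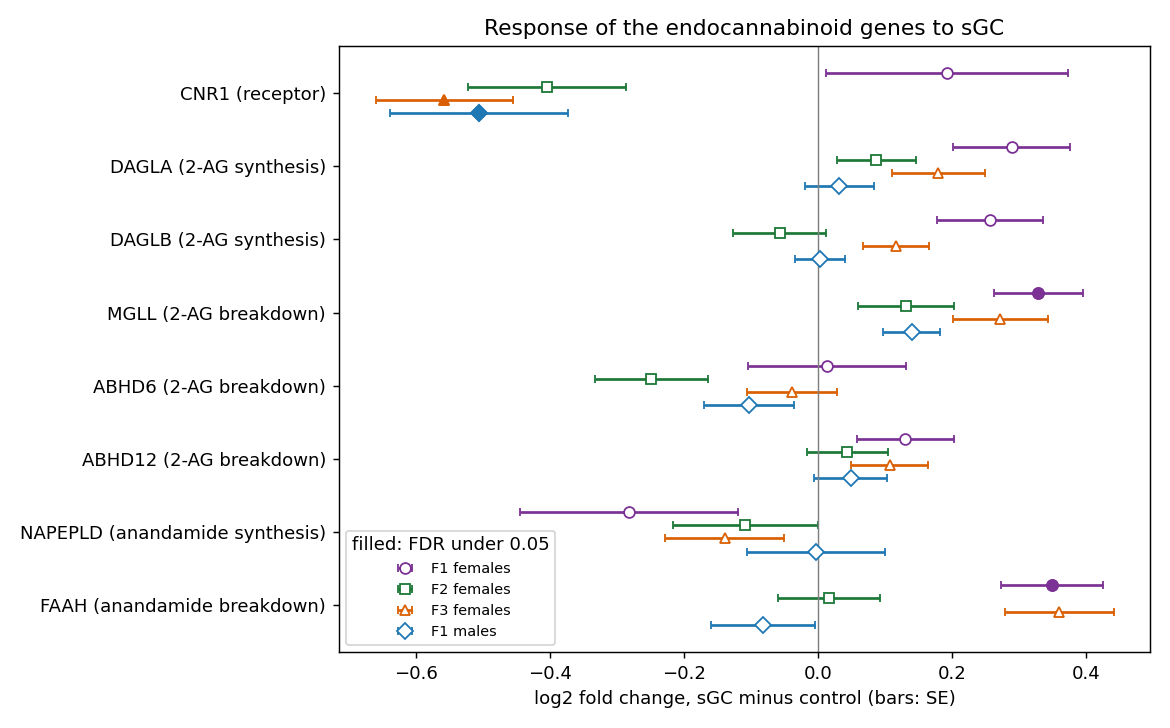
Log2 fold change of sGC against control animals for each of the 8 genes in F1 females (circles), F2 females (squares), F3 females (triangles) and F1 males (diamonds), with bars of 1 SE and filled symbols where the FDR was under 0.05. CNR1 lies left of 0 except in F1 females, MGLL lies right of 0 in every table, and the 4 filled symbols are CNR1 in F3 females (-0.56) and F1 males (-0.51) and MGLL (0.33) and FAAH (0.35) in F1 females.

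The log2 fold change was above 0 for 7 of the 8 genes in F1 females, 4 in F2 females, 5 in F3 females and 4 in F1 males, and for 45.5%, 52.1%, 48.2% and 50% of all tested genes. Across the 8 genes, the median log2 fold change was 0.22 in F1 females, -0.02 in F2 females, 0.11 in F3 females and -0.0004 in F1 males, beside medians over all tested genes of -0.03, 0.01, -0.01 and -0.0001. By the quasi-likelihood test, 2 genes passed in F1 females, 0 in F2 females, 1 in F3 females and 1 in F1 males. At an unadjusted p under 0.05, F1 females had 4 (DAGLA, DAGLB, MGLL and FAAH), F2 females had 2 (CNR1 and ABHD6), F3 females had 5 (CNR1, DAGLA, DAGLB, MGLL and FAAH) and F1 males had 2 (CNR1 and MGLL). The shares of all tested genes at that p were 34.2%, 16.1%, 17.3% and 25.2%. In F2 females the count of 0 became 1, CNR1, with the likelihood ratio test and with DESeq2. Calls over all genes there rose from 31 to 534 and 473.

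Whether the response to sGC differed between sexes or generations was tested as an interaction in 4 pairs of tables. Each table holds 1 sex and 1 generation, so these cannot be told apart from other properties of a table. Every male library was deeper than every female library, while depth overlapped among the female tables. The column names of the females share a series of numbers, and those of the males carry another. What these numbers mark is not given. Between F1 females and F1 males, 4 of the 8 genes passed, in a comparison in which 31.7% of all tested genes did. For each of the 4 the sGC-minus-control difference was lower in males: by 0.70 on the log2 scale for CNR1 (interaction -0.70, SE 0.24, edgeR FDR = 0.0312), and with interactions of -0.26 (SE 0.10) for DAGLA, -0.26 (SE 0.08) for DAGLB and -0.44 (SE 0.12) for FAAH. The edgeR FDRs of these 3 genes were 0.0497, 0.0182 and 0.00858. MGLL fell just outside the threshold (-0.20, SE 0.07, edgeR FDR = 0.0515) and passed in 5 of 19 fits that left out 1 animal, those without F1 female control animals 1 or 2, F1 female sGC animal 2 or F1 male control animals 3 or 4 (lowest edgeR FDR 0.0244).

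These interactions differed in how far they rested on single animals. Those of DAGLB and FAAH passed in all 19 fits that left out 1 animal. That of CNR1 passed in 15 and was lost without F1 female control animals 2 or 3, F1 female sGC animal 3 or F1 male control animal 3 (FDR at most 0.0695). That of DAGLA passed in 6, those without F1 female control animal 1, F1 female sGC animals 2 or 4, F1 male control animal 4 or F1 male sGC animals 1 or 4. The DAGLA interaction was also lost with upper-quartile normalization (edgeR FDR = 0.0790), while that of MGLL passed with RLE normalization (edgeR FDR = 0.0391) and with DESeq2 (FDR = 0.0222). Without F1 female control animals 1 and 4 together, CNR1 (-1.02, edgeR FDR = 0.00448), DAGLA (-0.35, FDR = 0.0157) and FAAH (-0.51, FDR = 0.00740) passed, and DAGLB did not (-0.23, FDR = 0.0702). Controls 1 and 4 had the highest CNR1 levels of the F1 female controls, and control 1 the highest DAGLA and FAAH levels. Leaving them out by itself lowers the interactions of these genes. RAC1, beside DAGLB in the reference annotation, had log2 fold changes of 0.25 in F1 females and 0.03 in F1 males. Whether the rows of DAGLB and RAC1 share reads is not known.

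Among generations of females, FAAH passed between F1 and F2 (interaction -0.34, SE 0.10, edgeR FDR = 0.0426), in a comparison in which 13.8% of all genes passed. It passed in 5 of 16 fits that left out 1 animal (without F1 control 1, F1 sGC 2, F2 control 4, F2 sGC 1 or F2 sGC 4), and without F1 controls 1 and 4 together it was -0.42 with an edgeR FDR of 0.0171. With upper-quartile normalization the FAAH call was lost (edgeR FDR = 0.0669). DAGLB (-0.32, FDR = 0.0526) and CNR1 (-0.60, FDR = 0.0961) did not pass in this pair. The DAGLB level of F2 animals was far below that of the other tables, which cannot be told apart from how that table was counted. Every DAGLB interaction that involves F2 females carries this limit. DAGLB passed without F1 sGC 3 or F2 sGC 2 (lowest edgeR FDR 0.0190) and in 4 of 7 alternatives, those with RLE normalization, no filter, a filter of CPM above 1 and DESeq2 (FDR from 0.0254 to 0.0490). CNR1 passed without F1 control 1 (edgeR FDR = 0.0274) and in 0 of 7 alternatives. Without F1 controls 1 and 4, CNR1 did, at -0.93 with an edgeR FDR of 0.00931, where 1967 of all genes passed, against 1536 with all animals. These controls had the highest CNR1 levels of their group, so leaving them out by itself lowers CNR1 interactions with F1 females. Between F1 and F3 females, where 0.0981% of all genes passed, none of the 8 did. The CNR1 interaction there was -0.77 (SE 0.22, unadjusted p = 0.00350 by the quasi-likelihood test, edgeR FDR = 0.162), the only 1 of the 8 with an unadjusted p under 0.05. It passed without F1 controls 1 and 4 (-1.08, edgeR FDR = 0.0265), the controls with the highest CNR1 level. In that fit 369 of all genes passed, against 11 with all animals. The FAAH interaction of this pair was -0.0074 (SE 0.11). Between F2 and F3 females, where 0.018% of all genes passed, none of the 8 did either, and FAAH (0.34, SE 0.11, FDR = 0.272) and DAGLB (0.17, SE 0.08, FDR = 0.434) had unadjusted quasi-likelihood p-values of 0.00612 and 0.0488. No member passed in these last 2 pairs with the likelihood ratio test or DESeq2.

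**Figure D4:**
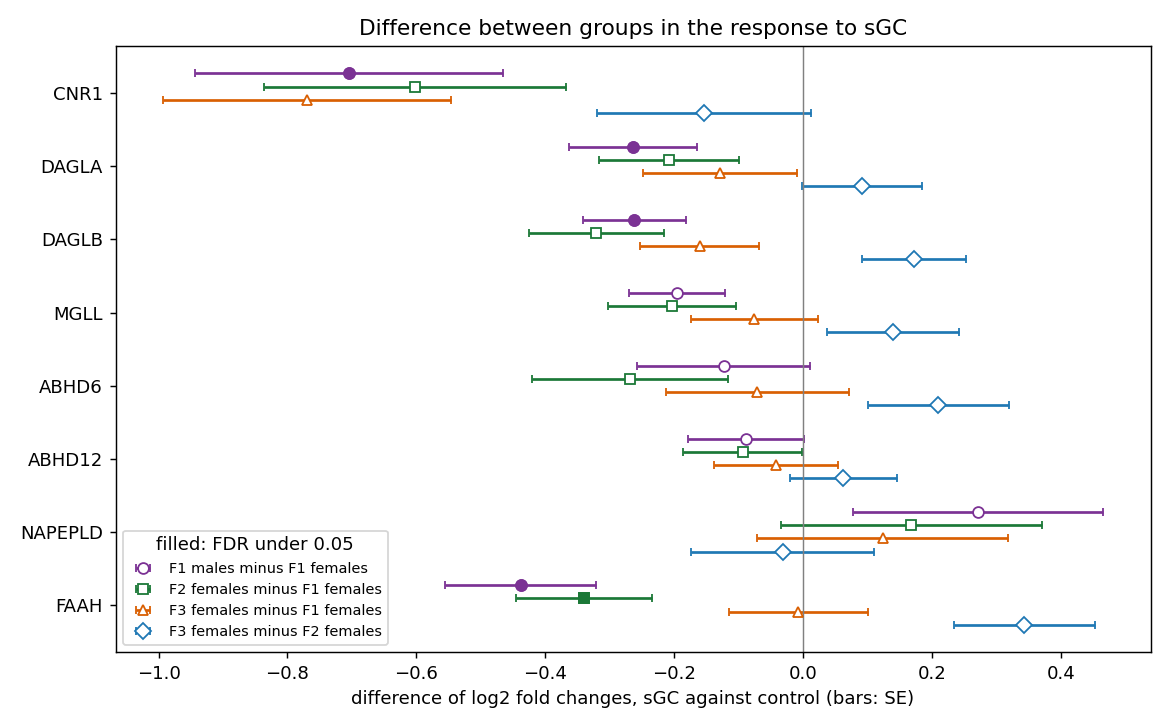
Difference between 2 tables in the log2 fold change of sGC against control, for each of the 8 genes, with bars of 1 SE and filled symbols where the FDR was under 0.05. Values left of 0 mean a lower sGC response in the second table: CNR1 reaches -0.70 for F1 males minus F1 females, and FAAH is at -0.44 for F1 males and -0.34 for F2 females, each minus F1 females, and near 0 for F3 minus F1 females.

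A wider list of 36 genes of the pathway, not including the 8, was read beside them. Of these, 27 were listed in at least 1 table and 25 in all 4. The genes not listed in any table were CNR2 (the CB2 receptor), GPR55, GPR18, GPR119, FAAH2, PTGS2, ALOX15, FABP7 and GNAI3. TRPV1 (F1 and F3 females), PPARG (F2 females) and PLA2G4E (F3 females and F1 males) were listed but too low to test. In F1 females, 5 of 25 tested genes rose and 5 fell, where 9.21% and 7.33% of all tested genes did. In F2 and F3 females 0 of 24 and 0 of 25 passed the quasi-likelihood test, and in F1 males 2 of 25 rose and 1 fell, against 5.74% and 3.48% of all tested genes. At an edgeR FDR under 0.05, 3 to 9 pathway genes passed in F1 females when 1 animal was left out, with the fewest without control 3 or sGC animal 1. Without controls 1 and 4 together the count was again 10, made up of 8 of the 10 named here with ALOX12, a lipoxygenase, and GNAO1, a G protein alpha subunit, in place of PLCB2 and PPARG. With DESeq2, 21 genes over the 4 tables passed, against 13 by the quasi-likelihood test and 18 by the likelihood ratio test. The list medians of the log2 fold change were 0.09, 0.02, 0.08 and 0.0028 in F1, F2 and F3 females and F1 males.

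The genes of both CB1-binding proteins on the list rose in F1 females. CNRIP1, which binds its C-terminal tail, had a log2 fold change of 0.31 (edgeR FDR = 0.0348), and SGIP1, an inhibitor of its endocytosis, had 0.28 (FDR = 0.0214). CNRIP1 passed in 2 and SGIP1 in 5 of the 8 fits that left out 1 animal, and both passed without controls 1 and 4 (edgeR FDRs 0.0408 and 0.0471). In F1 males their log2 fold changes were -0.09 and -0.05 and did not pass (edgeR FDRs 0.168 and 0.362). GNAI1, an inhibitory G protein alpha subunit of the kind that CB1 uses, rose by 0.44 in F1 females (SE 0.06, edgeR FDR = 0.00564), from 244.0 ± 19.3 to 329.9 ± 9.73 CPM, and passed in all 8 such fits and without controls 1 and 4 (edgeR FDR = 0.0166). Its log2 fold changes were 0.22 in F2 females, 0.28 in F3 females and 0.05 in F1 males, none past the threshold. A second row under the spelling Gnai1 was present in 3 of the tables, so reads of this gene may be split between rows.

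Receptors and phospholipases upstream of 2-AG synthesis moved in both directions. CHRM3, a muscarinic receptor that drives phospholipase C, rose in F1 females from 176.8 ± 54.6 to 360.2 ± 52.8 CPM (log2 fold change 1.03, SE 0.20, edgeR FDR = 0.0128), a call kept in all 8 fits that left out 1 animal and without controls 1 and 4 (1.28, edgeR FDR = 0.00959). In F3 females CHRM3 had a log2 fold change of 0.48 (edgeR FDR = 0.0941). GRM5, the metabotropic glutamate receptor that couples to 2-AG synthesis at many synapses, fell in F1 males from 58.1 ± 10.2 CPM (SD, n = 5) to 41.8 ± 7.13 CPM (n = 6; log2 fold change -0.48, edgeR FDR = 0.0302). Its log2 fold changes in F1, F2 and F3 females were 0.12, -0.31 and -0.29, none past the threshold. Of the phospholipase C beta genes, which produce the diacylglycerol that the lipases use, PLCB1 rose in F1 females (0.40, edgeR FDR = 0.0267), PLCB2 (-0.77, FDR = 0.0373) and PLCB3 (-0.33, FDR = 0.0299) fell, and PLCB4 was at 0.09 without passing. The calls of PLCB1, PLCB2 and PLCB3 were held in 2, 3 and 2 of the 8 fits that left out 1 F1 female (FDR at most 0.0931 by edgeR), and without controls 1 and 4 PLCB1 and PLCB3 passed and PLCB2 did not (edgeR FDR = 0.111). That of GRM5 was held in 5 of 11 fits that left out 1 F1 male (edgeR FDR at most 0.0736).

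The remaining pathway genes past the threshold were of other roles. ABHD4, a lipase of an alternative route to anandamide, fell in F1 females (log2 fold change -0.43, edgeR FDR = 0.0438) and rose in F1 males (0.28, FDR = 0.0147). FABP5, an intracellular carrier of anandamide, fell in F1 females from 15.7 ± 0.754 to 9.56 ± 1.77 CPM (log2 fold change -0.71, edgeR FDR = 0.0113). PPARG, a nuclear receptor that binds fatty acid ligands, fell in F1 females (-1.19, edgeR FDR = 0.0311), with only 5 to 26 reads in each animal. DDHD1, a phospholipase A1, rose in F1 males (0.30, edgeR FDR = 0.00922). When 1 animal was left out, FABP5 passed in 8 of 8 fits, ABHD4 in 1 of 8 and PPARG in 1 of 8 in F1 females, and ABHD4 and DDHD1 passed in 11 of 11 in F1 males. Without controls 1 and 4, FABP5 (edgeR FDR = 0.0374) and ABHD4 (0.0218) passed and PPARG did not (0.138). In F1 females, 4 of 5 tested microglial markers fell, with summed levels of 234.6 to 284.1 CPM in controls and 175.1 to 197.5 CPM in sGC animals, and their part in the falls of this table was not tested.

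To see which genes varied most like each of the 8 between animals of the same group, the group means were subtracted from the log2 CPM values and Pearson's r was taken over the 35 animals, among 10725 genes tested in all tables. The animals of a table share its normalization, and the values describe these libraries only. CNR1 varied most like NRXN3 (r = 0.84, Spearman's rho 0.70), GRIA1 (0.83, rho 0.80) and EPB41L4B (0.83, rho 0.78), a neurexin, an AMPA receptor subunit and a band 4.1-like protein. Within single tables the r of CNR1 with NRXN3 ranged from 0.20 to 0.93, and that with GRIA1 from 0.66 to 0.97. The closest pair of all was DAGLA with LRPAP1, a chaperone of lipoprotein receptors (r = 0.92, rho 0.85, and 0.88 to 0.99 within tables). DAGLB was most like RAC1 (r = 0.84, rho 0.83, and 0.63 to 0.94 within tables), its neighbour in the reference annotation, and whether the 2 rows share reads cannot be read from the tables. MGLL was most like ADAP1 (r = 0.86, with 0.82 to 0.90 within tables), ABHD6 like PTPRO (0.87, 0.72 to 0.99), ABHD12 like PYGB (0.87, 0.57 to 0.97) and NAPEPLD like NFIX (0.79, 0.59 to 0.96). FAAH had the weakest nearest gene, RASGRF1 (r = 0.68, with 0.57 to 0.87 within tables). Leaving out the 2 animals farthest from the median of the other gene left these first-ranked r between 0.67 (FAAH) and 0.91 (DAGLA).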

How the data were processed

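RNA of mPFC punches was sequenced by the authors as single reads of poly(A)-selected libraries made with a kit that does not mark strand, and for each of the 4 sets of animals they deposited a table of raw read counts with 1 row per gene symbol. The labels name TopHat2 and edgeR; the genome build, the read counter, the annotation and the filter on genes are not given in the sources used here. Columns of the authors' own comparison (dispersion, fold change, mean CPM, likelihood ratio, p-value and FDR) were not used.

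Each table was fitted with edgeR 4.0.16 in R 4.3.3 (filterByExpr with a minimum count of 10 and a minimum total of 15, TMM, quasi-likelihood test, Benjamini-Hochberg adjustment over all genes of a table). Interactions were fitted on 2 tables together. The SE was the log2 fold change divided by the root of the F statistic. Levels used TMM factors of each table alone. Likeness used log2 CPM with a prior count of 2. The study's methods name edgeR's likelihood ratio test, which was an alternative, as were DESeq2 1.42.0, 2 other normalizations (RLE, upper quartile), 2 other filters (none, CPM above 1), the replicate number as a block, all 8 groups in 1 fit, and leaving out single animals. The procedure was tested on simulated data. The changes planted there were larger than any sGC difference of the genes CNR1 to FAAH, and tissue spread between animals was not simulated. It therefore does not show how well differences of the size seen here are found.

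The 8 genes, the pathway and marker lists and the tests were chosen with earlier results of these data known. The rule for the 8 genes uses no measured value, but it was not set blind to these data. All 8 genes, every pathway gene with an FDR under 0.05, those not listed or not tested, and the genes most like each member were named by rule; other pathway genes, the interneuron markers and SLC17A7 were named after their values were seen. Animals of a group differed by more than sampling noise (chi-square per degree of freedom of 2.84 or more). Sequences, gene lengths and behaviour were not analysed here.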

Additional observations from a re-analysis of the deposited data

Results flagged for a closer look

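The sGC response of 4 genes differed between F1 females and F1 males by the interaction test, with differences of -0.70 for CNR1, -0.26 for DAGLA, -0.26 for DAGLB and -0.44 for FAAH (log2, males minus females). For FAAH it also differed between F1 and F2 females, by -0.34 (F2 minus F1). Of all tested genes, 31.7% passed the first of these tests and 13.8% the second. The DAGLA call held in 6 of 19 fits that left out 1 animal and the FAAH call of F1 and F2 females in 5 of 16. RAC1, beside DAGLB in the reference annotation, had log2 fold changes of 0.25 in F1 females and 0.03 in F1 males. Whether the rows of these 2 genes share reads is not known.

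Of 64 groups of animals checked, 8 genes in 8 groups, 3 held an animal far from the others, where chance gives about 1 in 20. CNR1 was at 84.2 CPM in sGC animal 6 of the F1 males, whose other sGC animals lay between 47.6 and 57.4 CPM. NAPEPLD was at 22.4 CPM in control animal 3 of the F1 males, with the other controls between 16.4 and 17.1 CPM. FAAH was at 22.5 CPM in control animal 1 of the F1 females, with the other controls between 19.2 and 19.3 CPM.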

How the results depend on the processing

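The counts of the 8 genes with an FDR under 0.05 were 2, 0, 1 and 1 in F1, F2 and F3 females and F1 males. With the likelihood ratio test and with DESeq2 they were 4, 1, 3 and 2. Calls over all genes also rose, from 1864, 31, 153 and 1062 to 2100, 534, 616 and 1410 with the likelihood ratio test. With DESeq2 they were 2423, 473, 632 and 1590. In F1 females 4 of the 8 genes passed with RLE normalization (1896 of all genes). In a single fit of all groups 4 passed in F1 females and 2 in F3 females (3328 and 396 of all genes). In F3 females these were MGLL and FAAH (FDR = 0.0105 and 0.0101), and CNR1 did not pass (FDR = 0.0544, all by edgeR's quasi-likelihood test). Leaving out each animal in turn gave 0 to 3 in F1 females, 0 to 0 in F2 females, 0 to 2 in F3 females and 0 to 1 in F1 males. The count of interactions between F1 females and F1 males was 2 to 5 over those fits, and DAGLA was lost with upper-quartile normalization. Between F1 and F2 females it was 0 to 2 over those fits, 0 with upper-quartile normalization, and 2 with RLE normalization, no filter, a filter of CPM above 1 or DESeq2. The wider pathway count was 21 with DESeq2. Added after seeing the data, it was 11 with the replicate block, 18 in the single fit and 6 to 16 without single animals.

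Replicate numbers are shared by the groups, but the labels do not say that a number marks a litter or batch. Over 17 pairs the correlation of same-numbered animals ran from -0.29 to 0.32, with 4 above 0.1 and 1 animal closest to its own number, so the animals were not treated as paired. With the replicate block the counts were 0 in F1, 0 in F2 and 0 in F3 females and 1 in F1 males, and 0 interactions passed between F1 and F2 females. The block took the calls of MGLL and FAAH in F1 females (FDR = 0.0559 and 0.0533), of CNR1 in F3 females (FDR = 0.0910) and of the interactions of DAGLA between F1 females and males and FAAH between F1 and F2 females (FDR = 0.0932 and 0.0876, all by edgeR's quasi-likelihood test). The block also uses up degrees of freedom, and why these calls were lost was not tested.

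Without F1 female control animals 1 and 4, an alternative chosen after seeing the data, 3 genes passed in F1 females, 2 interactions with F2 and 1 with F3 females. Over all genes 1707, 1967 and 369 passed in these fits, against 1864, 1536 and 11 with all animals. Signs turned for values near 0. With upper-quartile normalization ABHD6 in F1 females was -0.0225 and DAGLB in F1 males -0.0019, in the single fit NAPEPLD in F1 males was 0.0002, and the FAAH interaction of F1 and F3 females was 0.0033 with RLE, 0.0249 with upper-quartile normalization and 0.0034 with DESeq2. Leaving out single animals, the log2 fold change ran from -0.0628 to 0.0849 for ABHD6 in F1 females, from -0.0047 to 0.0654 for ABHD12 and from -0.0153 to 0.0516 for FAAH in F2 females, from -0.0793 to 0.0059 for ABHD6 in F3 females, and from -0.0108 to 0.0264 for DAGLB and from -0.0479 to 0.0923 for NAPEPLD in F1 males. Interactions of F1 and F3 females ran from -0.1407 to 0.0317 for ABHD6, from -0.0930 to 0.0326 for ABHD12 and from -0.0685 to 0.0550 for FAAH, and that of NAPEPLD in F2 and F3 females from -0.1117 to 0.0617.

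Over all genes, counts of calls moved more. In F1 females the 1864 calls became 1080 with the replicate block, 3328 in the single fit and 613 to 2115 without single animals. In F2 females the 31 calls became 70 with upper-quartile normalization, 76 without a filter, 534 with the likelihood ratio test, 473 with DESeq2, 53 with the block, 10 in the single fit and 0 to 487 without single animals. In F3 females the 153 calls became 616, 632, 67, 396 and 20 to 598 with the likelihood ratio test, DESeq2, the block, the single fit and without single animals. In F1 males the 1062 calls ranged from 667 to 1613 without single animals. The 11 interactions of F1 and F3 females became 18 (upper quartile), 114 with the likelihood ratio test, 201 with DESeq2, 0 with the block and 369 without F1 controls 1 and 4, and the 2 of F2 and F3 females became 4 with either other normalization and 93, 126 and 9 with the likelihood ratio test, DESeq2 and the block. The causes were not tested. With 4 animals a group, smaller differences may be missed, and TRPV1, PPARG and PLA2G4E were too low to test in some tables.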
